A study of Homo sapiens with 12 samples.

Results

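The 10 genes described here encode nuclear receptors that are known to repress their targets through NCoR co-repressors and the histone deacetylase HDAC3. They are the retinoic acid receptor RARA, the retinoid X receptors RXRA and RXRB, the thyroid hormone receptors THRA and THRB, the vitamin D receptor VDR, the liver X receptors NR1H2 and NR1H3, and the peroxisome proliferator-activated receptors PPARD and PPARG. They were chosen by name, and each matched 1 of the 78892 genes in the count table. Messenger RNA was measured in 12 libraries of OCI-Ly7, a human diffuse large B-cell lymphoma line of germinal-centre type, with 3 libraries in each of 4 groups. Cells of the HDAC3i+AZA group received 5-azacitidine (100 nM, every day from day 0 to day 4) and an HDAC3 inhibitor (15 µM, on days 2 and 4). The HDAC3i group received the inhibitor alone, the AZA group 5-azacitidine alone, and the vehicle group neither. Cells of all groups were harvested on day 5. 5-azacitidine is a cytidine analogue that traps DNA methyltransferases once it is built into DNA, and the sources used here do not name the inhibitor. All 4 groups are of 1 cell line. Nothing in the labels ties the 3 libraries of a group to separate cultures, so p-values measure only how far libraries differ, and that spread can be technical.

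Without a ligand, receptors of this kind sit on DNA as heterodimers with a retinoid X receptor and hold an NCoR co-repressor, whose deacetylase-activating domain binds HDAC3 and switches its enzyme activity on. Ligand binding releases the co-repressors and recruits co-activators such as the NCOA proteins, CBP and p300, so the same receptor can repress or activate. In B cells and other leukocytes, retinoic acid, vitamin D and oxysterols are known ligands that act through these receptors on differentiation, migration and cholesterol export.

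With the inhibitor, alone or with 5-azacitidine, the transcripts of VDR and THRA were well above vehicle, RARA was slightly higher and NR1H3 slightly lower. RXRA was lower than vehicle with the inhibitor alone (-0.56 on the log2 scale), and NR1H2 slightly lower with both drugs. The RARA and NR1H3 calls with the inhibitor alone, and that of NR1H2, depended on single libraries. VDR reached 4.62-fold and THRA 2.63-fold of vehicle with both drugs. No receptor of the 10 was called with 5-azacitidine alone, a comparison in which 9.06% of all tested genes were called. RXRB, the most abundant of them, was called in no comparison, and THRB and PPARG had no count in any library.

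Upstream sequences are shown for 3 of the receptors that went different ways: THRA, which rose with the inhibitor, RXRB, which was not called, and NR1H3, which fell. Each is the 250 bases before a transcription start in RefSeq (GRCh38.p14), read 5′ to 3′ on the gene's strand. Capitals mark GGGCGG, the core letters of a GC box, or AGGTCA, the hexamer that nuclear receptors bind, on either strand, and overlapping matches are counted separately. THRA has 1 start in the table (chr17:40062715-40062964, + strand), RXRB has 2 (shown is chr6:33200666-33200915, - strand) and NR1H3 has 4 (shown is chr11:47248050-47248299, + strand).
THRA: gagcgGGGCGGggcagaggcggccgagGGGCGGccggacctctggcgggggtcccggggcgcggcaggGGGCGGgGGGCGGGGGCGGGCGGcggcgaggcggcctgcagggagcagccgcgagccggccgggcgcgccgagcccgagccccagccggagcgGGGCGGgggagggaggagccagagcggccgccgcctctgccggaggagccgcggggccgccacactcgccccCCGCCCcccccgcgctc
RXRB: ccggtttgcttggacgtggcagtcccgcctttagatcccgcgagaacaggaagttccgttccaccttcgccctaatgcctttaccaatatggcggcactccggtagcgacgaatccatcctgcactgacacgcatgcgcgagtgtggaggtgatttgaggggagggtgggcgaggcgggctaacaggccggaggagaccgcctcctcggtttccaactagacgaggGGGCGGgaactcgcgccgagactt
NR1H3: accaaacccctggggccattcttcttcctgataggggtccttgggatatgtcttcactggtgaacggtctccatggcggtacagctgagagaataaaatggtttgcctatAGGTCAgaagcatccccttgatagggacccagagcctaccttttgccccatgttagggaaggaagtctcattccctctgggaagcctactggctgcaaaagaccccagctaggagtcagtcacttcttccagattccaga
The THRA window holds 8 matches of GGGCGG and 39 CpG dinucleotides, the RXRB window 1 match and 24 CpG, and the NR1H3 window none and 2 CpG, with 1 match of AGGTCA. The RXRB start not shown has 12 CpG and 0 matches of either motif. The NR1H3 starts not shown have 22, 6 and 6 CpG, with 3, 0 and 2 matches of GGGCGG and 0 of AGGTCA. The contrast between these windows therefore depends on the start shown. Of 35116 RefSeq promoters of the same length, 42.6% hold GGGCGG and 12.1% hold AGGTCA, and the median promoter has 11 CpG. The table has 22 starts for 9 of the 10 receptors. GGGCGG stood before some start of 8 of these 9 receptors, and AGGTCA before some start of 3, RARA, NR1H3 and PPARG. These counts take any start of a receptor, whereas the shares of 42.6% and 12.1% are per single promoter. The counts therefore cannot be set against those shares, and whether the receptors hold either motif more often than other genes was not tested. None of the 22 windows held AGGTCA as a direct repeat with a spacer of 1 to 5 bases. A match says only that these letters are in the window.

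VDR (ENSG00000111424, chromosome 12, 47841537 to 47943048, - strand, GRCh38) encodes the receptor of the hormonal form of vitamin D. Its level was 18.2, 17.8 and 18.7 CPM (counts relative to the TMM-scaled library size) in HDAC3i+AZA libraries, 13.9, 15.1 and 14.1 CPM in HDAC3i libraries, 4.14, 3.17 and 3.91 CPM in AZA libraries, and 3.34, 4.67 and 3.84 CPM in vehicle libraries. All 6 libraries with the inhibitor lay above all 6 without it, and the HDAC3i+AZA libraries lay above the HDAC3i libraries. The log2 fold change was 1.86 ± 0.11 (SE) for HDAC3i against vehicle (3.63-fold, adjusted p = 1.86e-13) and 2.21 ± 0.11 for HDAC3i+AZA against vehicle (adjusted p = 2.44e-15). For AZA against vehicle it was -0.08 ± 0.13 (adjusted p = 0.785), with a 95% interval of -0.38 to 0.22. VDR was also the only receptor of the 10 called in HDAC3i+AZA against HDAC3i, where 7.34% of all tested genes were called, by a log2 fold change of 0.35 ± 0.10 (1.27-fold, adjusted p = 0.0271). That call ended without HDAC3i+AZA replicate 1 (adjusted p = 0.0752) or 3 (0.0905), without HDAC3i replicate 1 (0.118), 2 (0.0536) or 3 (0.111), and without HDAC3i+AZA replicate 3 and AZA replicate 1 together (0.0683). Against AZA, VDR was higher with both drugs by 2.29 ± 0.11 (adjusted p = 2.03e-15). The effect of 5-azacitidine with the inhibitor minus that without it, the interaction, was 0.43 ± 0.16 on the log2 scale for VDR (adjusted p = 0.242). These are levels in bulk RNA, in which more cells with a transcript and more transcript per cell cannot be told apart.

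THRA (ENSG00000126351, chromosome 17, 40058290 to 40093867, + strand) encodes thyroid hormone receptor alpha and a splice form that binds no hormone. HDAC3i+AZA libraries had 21.8, 21.1 and 20.7 CPM, HDAC3i libraries 19.01, 17.0 and 17.6 CPM, AZA libraries 9.89, 7.78 and 7.65 CPM, and vehicle libraries 7.35, 8.92 and 7.85 CPM. Again the 6 libraries with the inhibitor stood apart from the 6 without it, while AZA and vehicle libraries overlapped. The log2 fold change was 1.15 ± 0.10 for HDAC3i against vehicle (2.22-fold, adjusted p = 1.85e-10) and 1.40 ± 0.10 for HDAC3i+AZA against vehicle (adjusted p = 2.05e-12). HDAC3i+AZA was above AZA by 1.33 ± 0.10 (adjusted p = 6.84e-12). Its difference from HDAC3i, 0.24 ± 0.09 on the log2 scale, did not pass the test (adjusted p = 0.103). NR1D1, which encodes the heme-binding repressor REV-ERB alpha, overlaps THRA tail to tail on the opposite strand. NR1D1 had 9.51, 8.94 and 9.30 CPM in HDAC3i+AZA libraries, 9.87, 11.6 and 10.97 CPM in HDAC3i libraries, 16.5, 13.3 and 13.4 CPM in AZA libraries, and 15.8, 15.1 and 16.4 CPM in vehicle libraries. It thus fell where THRA rose, with log2 fold changes of -0.55 ± 0.09 for HDAC3i (adjusted p = 2.05e-05) and -0.77 ± 0.10 for HDAC3i+AZA against vehicle (adjusted p = 1.02e-07). The 2 genes share 473 exonic bases, and counting without regard to strand left out reads that overlap more than 1 gene.

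RARA (ENSG00000131759, chromosome 17, 40309180 to 40357643, + strand) encodes the retinoic acid receptor alpha. Its levels were 14.2, 12.6 and 13.2 CPM in HDAC3i+AZA libraries, 13.1, 11.9 and 12.8 CPM in HDAC3i libraries, 10.7, 8.35 and 8.60 CPM in AZA libraries, and 11.05, 9.79 and 11.1 CPM in vehicle libraries. The groups with the inhibitor did not overlap vehicle, but the gap to it was smaller than for VDR or THRA. HDAC3i+AZA was higher than vehicle by a log2 fold change of 0.33 ± 0.10 (1.26-fold, adjusted p = 0.00535) and higher than AZA by 0.54 ± 0.10 (adjusted p = 4.33e-05). For HDAC3i against vehicle the log2 fold change was 0.24 ± 0.10 (1.18-fold, adjusted p = 0.0392). This last call ended with no filter on low counts (adjusted p = 0.0608) and without HDAC3i replicate 1 (0.128) or 3 (0.0989) or vehicle replicate 1 (0.0545) or 2 (0.178). Of the exonic bases of RARA, 21.4% are shared with genes on the opposite strand, among them RARA-AS1. RARG, the gamma form of the same receptor and no member of the 10, averaged 26.3 ± 1.83 CPM with both drugs, 23.3 ± 1.40 CPM with the inhibitor, 12.5 ± 0.763 CPM with 5-azacitidine and 12.7 ± 0.496 CPM in vehicle (SD, n = 3 each). It rose by a log2 fold change of 0.88 ± 0.08 for HDAC3i (adjusted p = 7.71e-10) and 1.05 ± 0.08 for HDAC3i+AZA against vehicle (adjusted p = 1.27e-11). Per exonic length, RARA therefore made up 35.4% ± 0.514 of the summed RARA, RARB and RARG level with both drugs, 36.8% ± 1.86 with the inhibitor, 44.1% ± 2.83 with 5-azacitidine and 47.4% ± 1.08 in vehicle (SD, n = 3 each). RARB had 10 to 19 counts per group and was not tested.

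**Figure D1:**
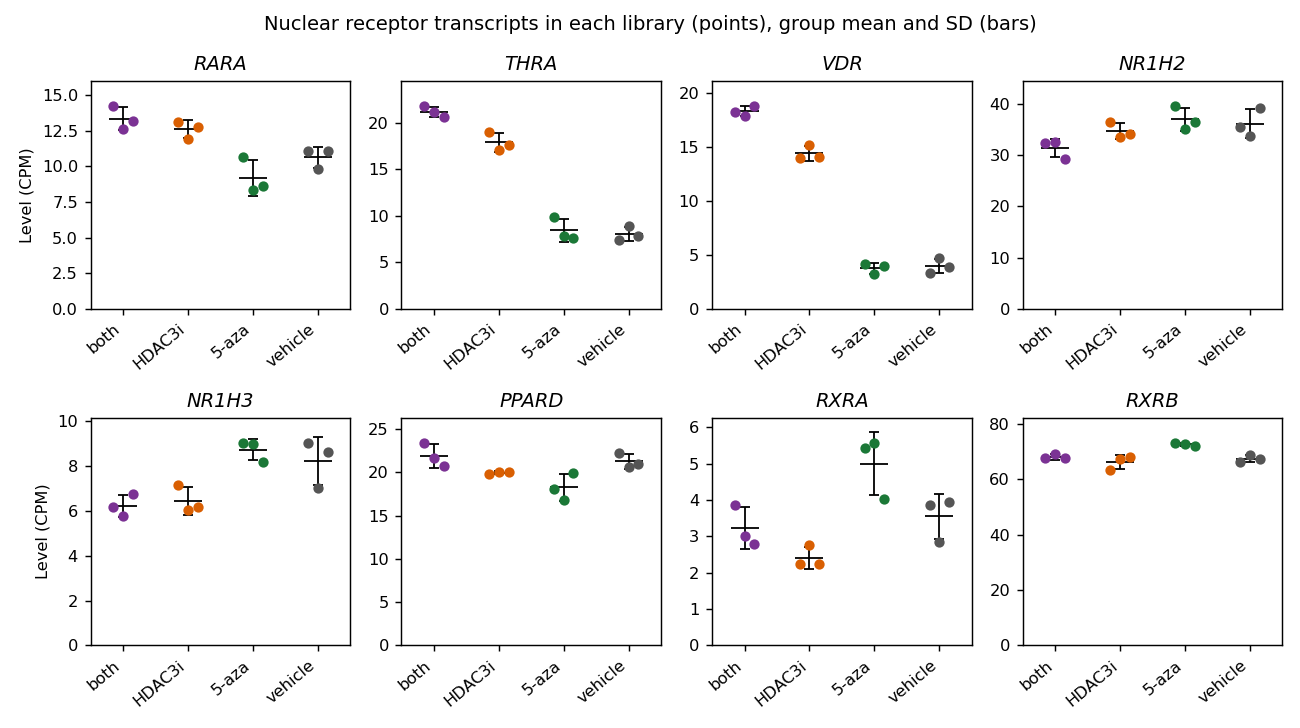
Levels in CPM (TMM-scaled; each panel has its own axis from 0) of the 8 receptors with counts, by group, with a point for each library, a wide bar at the group mean and error bars of 1 SD. For VDR, THRA and RARA all libraries with the inhibitor lie above all libraries without it.

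The liver X receptors bind oxysterols and switch on genes of cholesterol export. NR1H3 (LXR alpha, ENSG00000025434, chromosome 11, 47248300 to 47269033, + strand) had 6.18, 5.77 and 6.75 CPM in HDAC3i+AZA libraries, 7.15, 6.03 and 6.17 CPM in HDAC3i libraries, 9.03, 8.98 and 8.20 CPM in AZA libraries, and 9.03, 7.01 and 8.61 CPM in vehicle libraries. HDAC3i+AZA libraries lay below vehicle, whereas the highest HDAC3i library reached above the lowest vehicle library. NR1H3 fell with both drugs by 0.40 ± 0.11 on the log2 scale against vehicle (adjusted p = 0.0038) and by 0.49 ± 0.11 against AZA (adjusted p = 0.000637). With the inhibitor alone the change was -0.35 ± 0.11 (adjusted p = 0.0114), and it missed the threshold without HDAC3i replicate 2 (0.0558) or vehicle replicate 1 (0.0742). NR1H2 (LXR beta, ENSG00000131408, chromosome 19, 50329653 to 50383388, + strand), which shares 22.1% of its exonic bases with NAPSA on the opposite strand, had 32.3, 32.5 and 29.3 CPM in HDAC3i+AZA libraries, 36.4, 33.5 and 34.2 CPM in HDAC3i libraries, 39.6, 35.0 and 36.4 CPM in AZA libraries, and 35.4, 33.7 and 39.2 CPM in vehicle libraries. The HDAC3i+AZA libraries were the lowest, and the other groups overlapped each other. Against vehicle NR1H2 fell with both drugs by 0.20 ± 0.07 (adjusted p = 0.0168), and the change with the inhibitor alone was -0.06 ± 0.07 (adjusted p = 0.540). The call with both drugs ended without HDAC3i+AZA replicate 3 (adjusted p = 0.0942) or vehicle replicate 3 (0.125), and with a filter of 5 CPM in 3 libraries (-0.12, 0.128). HDAC3i+AZA replicate 3 and AZA replicate 1 had the highest mitochondrial shares of counts, 15.3% and 13.8%. Without that pair of libraries the NR1H2 changes were -0.14 against vehicle (adjusted p = 0.114) and -0.13 for HDAC3i+AZA against AZA (0.209), where all libraries gave -0.24 ± 0.07 (0.006). Without AZA replicate 1 alone this difference was -0.18 (adjusted p = 0.0555).

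PPARD (ENSG00000112033, chromosome 6, 35342558 to 35428191, + strand) encodes a receptor of fatty acids that is known to switch on their oxidation. It had 23.4, 21.6 and 20.7 CPM in HDAC3i+AZA libraries, 19.8, 20.1 and 20.04 CPM in HDAC3i libraries, 18.1, 16.8 and 19.9 CPM in AZA libraries, and 22.3, 20.6 and 21.0 CPM in vehicle libraries. The AZA libraries lay below vehicle and overlapped the HDAC3i libraries. Their difference from vehicle was not called, at a log2 fold change of -0.22 ± 0.08 (adjusted p = 0.0738), which passed the test without AZA replicate 3 (0.0421). HDAC3i+AZA was higher than AZA by 0.26 ± 0.08 (adjusted p = 0.00525) and did not differ from vehicle beyond the spread of the libraries (0.04 ± 0.08, adjusted p = 0.668, 95% interval -0.13 to 0.22).

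The retinoid X receptors are the shared partners of the other receptors. RXRB (ENSG00000204231, chromosome 6, 33193588 to 33200665, - strand) had 67.6, 69.3 and 67.6 CPM in HDAC3i+AZA libraries, 63.4, 67.2 and 68.1 CPM in HDAC3i libraries, 73.1, 72.8 and 72.2 CPM in AZA libraries, and 66.2, 68.9 and 67.4 CPM in vehicle libraries. The AZA libraries were the highest, by a log2 fold change of 0.11 ± 0.05 over vehicle that did not pass the test (adjusted p = 0.230). The 95% interval of the change was -0.15 to 0.09 for HDAC3i and -0.11 to 0.13 for HDAC3i+AZA against vehicle (adjusted p = 0.699 and 0.844). RXRA (ENSG00000186350, chromosome 9, 134317098 to 134440585, + strand) was at a low level, with 3.87, 3.00 and 2.78 CPM in HDAC3i+AZA libraries, 2.24, 2.75 and 2.23 CPM in HDAC3i libraries, 5.43, 5.57 and 4.02 CPM in AZA libraries, and 3.87, 2.84 and 3.95 CPM in vehicle libraries. The inhibitor group was lowest and the 5-azacitidine group highest. RXRA fell with the inhibitor by 0.56 ± 0.18 against vehicle (adjusted p = 0.00917). With both drugs it overlapped vehicle, at -0.14 ± 0.17 (adjusted p = 0.504, 95% interval -0.53 to 0.25). With 5-azacitidine the change was 0.49 ± 0.16, just short of the threshold (adjusted p = 0.0528), and it passed without AZA replicate 3 (0.0224), without HDAC3i+AZA replicate 1 (0.0435), 2 (0.0429) or 3 (0.0469), and with DESeq2 (0.0426). HDAC3i+AZA against AZA was -0.63 ± 0.16 (adjusted p = 0.00172), and -0.46 (0.0531) without HDAC3i+AZA replicate 3 and AZA replicate 1 together.

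**Figure D2:**
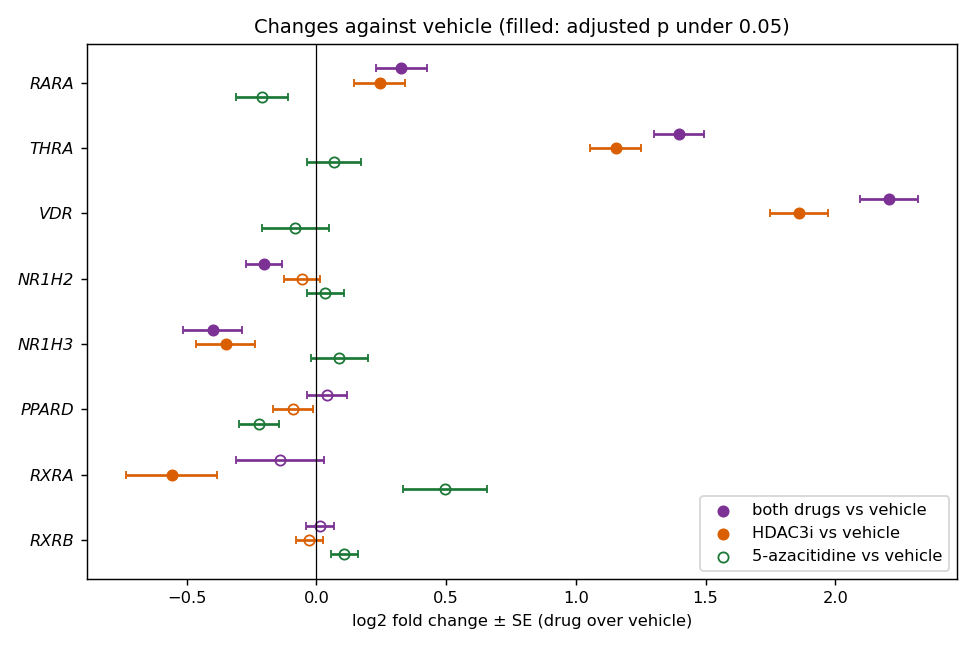
Log2 fold changes against vehicle with bars of 1 SE for the 8 tested receptors, for both drugs, the inhibitor and 5-azacitidine, with filled points at an adjusted p under 0.05. VDR and THRA lie above 1 with the inhibitor in both settings, and every 5-azacitidine point is open.

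THRB (ENSG00000151090) and PPARG (ENSG00000132170) had 0 counts in all 12 libraries. A count of 0 allows up to 3 counts, or 0.0813 to 0.0857 CPM per library, a limit that covers counting error only. RXRG and NR1H4 (the bile acid receptor FXR), of the same family, also had 0 counts.

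Of the 8 tested receptors, 3 rose and 2 fell with HDAC3i against vehicle, where 51.3% of 17869 genes were called, 26.4% higher and 24.9% lower. With HDAC3i+AZA against vehicle 3 rose and 2 fell, where 57.1% of genes were called, 29.6% higher and 27.5% lower. In HDAC3i+AZA against AZA 4 receptors were higher and 3 lower, beside 53.8% of genes, 28.7% higher and 25.1% lower. The counts against vehicle, 5 of 8 each, are close to the shares of all genes and are no result about the receptors as a group. HDAC3i+AZA against HDAC3i gave 1 call, VDR, beside 7.34% of genes, 4.51% higher and 2.83% lower. With AZA against vehicle the edgeR quasi-likelihood test called 0 of 8, beside 4.31% of genes higher and 4.75% lower. There, 1 was higher and 2 were lower at an unadjusted p under 0.05, DESeq2 called 1 and limma voom 0. The interaction gave 0 of 8 with edgeR, DESeq2 and limma voom, beside 0.716% of genes, 0.263% higher and 0.453% lower, with 3 receptors at an unadjusted p under 0.05. The median log2 change of the 8 was -0.04 for HDAC3i, 0.05 for AZA and 0.03 for HDAC3i+AZA against vehicle, beside 0.00, 0.00 and 0.01 for all tested genes. The comparisons share groups: both single drugs and the combination are set against the same 3 vehicle libraries.

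Set per exonic length, as CPM per kilobase of exon (RPKM), RXRB led in every group, followed by NR1H2 and PPARD. Mean RXRB was 17.5 RPKM with both drugs, 17.0 with the inhibitor, 18.7 with 5-azacitidine and 17.3 in vehicle. VDR was the fourth of the 8 receptors with both drugs at 3.22 RPKM, but the seventh in vehicle at 0.696 RPKM, with only RXRA below it. With both drugs THRA and RARA overlapped in their libraries (means 2.89 and 2.82 RPKM), as did RARA, VDR and THRA between neighbours with the inhibitor (2.66, 2.53 and 2.44 RPKM) and RARA and NR1H3 with 5-azacitidine (1.94 and 1.93 RPKM). Other neighbours in the order did not overlap. RXRB made up 97.8% to 98.8% of the summed RXR level in the group means. The summed level of the 8 partners, that is all of the 10 but RXRA and RXRB, was 1.19 ± 0.0422 times that of the RXR genes with both drugs, 1.17 ± 0.0765 with the inhibitor, 0.876 ± 0.0532 with 5-azacitidine and 0.988 ± 0.0540 in vehicle (SD, n = 3 each). VDR alone came to 18.1% ± 0.688, 14.7% ± 0.630, 3.46% ± 0.474 and 3.95% ± 0.602 of the RXR level in these groups. The partner sum leaves out RARG, no member of the 10, which had 5.13, 4.55, 2.44 and 2.47 RPKM in the same groups. The ratio of partners to RXR genes therefore depends on which receptors are listed.

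**Figure D3:**
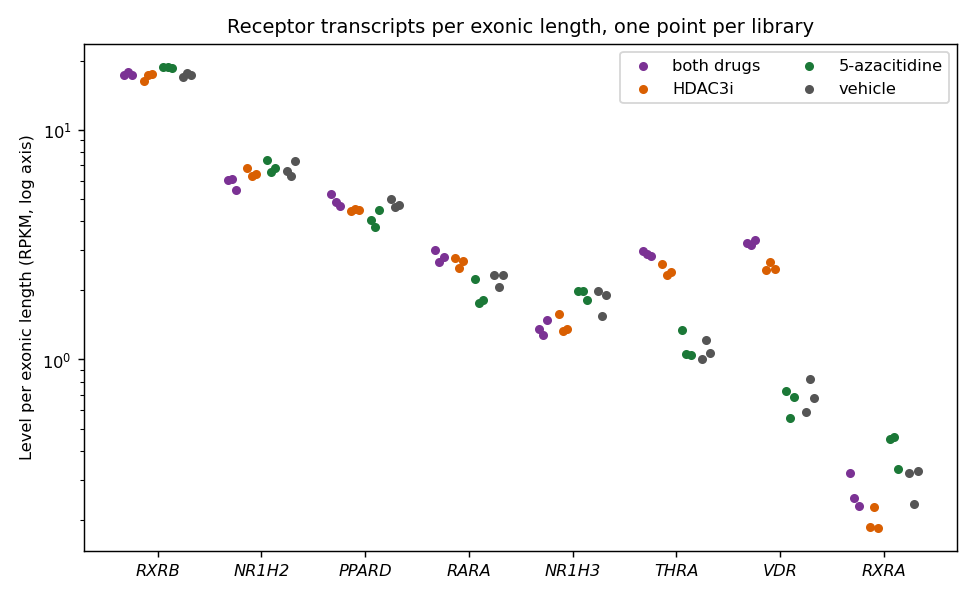
Level per exonic length (RPKM, log axis) of the 8 receptors with counts, with a point for each library, ordered by their vehicle level. RXRB stays near 17 to 19 RPKM in group means, while THRA and VDR split into libraries with and without the inhibitor.

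Over the 12 libraries, the genes whose log2 CPM followed VDR most closely were DYRK3, AKIRIN2 and IST1 (Pearson r = 0.995, 0.994 and 0.993 among 9954 genes). Those closest to THRA were RGS3, AACS and ACSF2 (r = 0.992, 0.990 and 0.990). With 588 genes over 0.95 for VDR and 539 for THRA, such likeness was common. The points share their 4 groups, so these values are a description.

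The co-repressor complex itself is described through 6 genes. NCOR1 encodes the scaffold NCoR, TBL1X and TBL1XR1 the proteins that exchange co-repressors, and GPS2 and CORO2A further subunits. HDAC3 averaged 92.8 ± 0.494 CPM with both drugs, 90.1 ± 2.76 CPM with the inhibitor, 85.8 ± 3.28 CPM with 5-azacitidine and 88.6 ± 0.676 CPM in vehicle (SD, n = 3 each), with no call. With a filter of 5 CPM in 3 libraries it was higher with both drugs, by 0.15 against vehicle (adjusted p = 0.00952) and 0.18 against AZA (0.00204), and it was called against AZA without AZA replicate 3 (0.14, adjusted p = 0.0424), with DESeq2 (0.11, 0.0463) and with the replicate block by library names (0.13, 0.0397). CORO2A had 18.9, 18.4 and 17.8 CPM in HDAC3i+AZA libraries, 14.3, 16.2 and 16.8 CPM in HDAC3i libraries, 5.17, 4.97 and 3.83 CPM in AZA libraries, and 4.50, 4.77 and 4.603 CPM in vehicle libraries. Its libraries with the inhibitor stood apart, as for VDR and THRA, with log2 fold changes of 1.77 ± 0.11 for HDAC3i (adjusted p = 1.47e-13) and 1.99 ± 0.10 for HDAC3i+AZA against vehicle (adjusted p = 6.18e-15). TBL1XR1 rose by 0.40 ± 0.06 with HDAC3i and 0.44 ± 0.06 with HDAC3i+AZA (adjusted p = 7.87e-07 and 1.29e-07). NCOR1 fell by 0.31 ± 0.06 with HDAC3i and by 0.38 ± 0.06 with HDAC3i+AZA against vehicle (adjusted p = 7.22e-05 and 3.22e-06). Its fall of 0.21 ± 0.06 with AZA (adjusted p = 0.0186) was no longer called without AZA replicate 2 (0.0621) or 3 (0.0739) or vehicle replicate 1 (0.0726) or 2 (0.0805).

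TBL1X fell with AZA by 0.29 ± 0.07 (adjusted p = 0.00453). Its rise of 0.19 ± 0.06 with HDAC3i+AZA (adjusted p = 0.0144) was lost without HDAC3i+AZA replicate 3 (0.0604) or vehicle replicate 1 (0.0734) and with no filter on low counts (0.0508). GPS2, with 52.5% of its exonic bases shared with other genes, had no call. In all, 3 of the 6 rose and 1 fell with HDAC3i+AZA, 2 rose and 1 fell with HDAC3i, and 2 fell with AZA, beside 29.6% and 27.5%, 26.4% and 24.9%, and 4.75% of all tested genes.

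**Figure D4:**
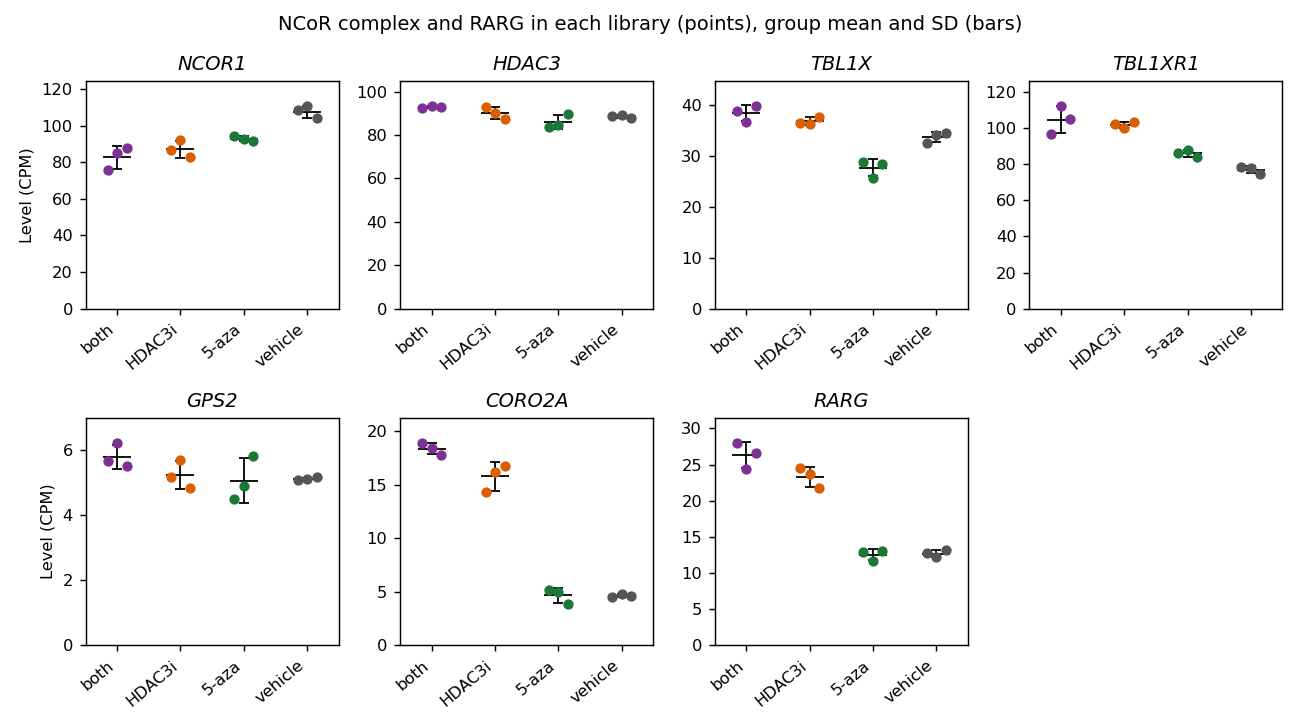
Levels in CPM (each panel has its own axis from 0) of 6 genes of the NCoR complex and of RARG, by group, with a point for each library, a wide bar at the mean and error bars of 1 SD. CORO2A and RARG split by the inhibitor, TBL1X is lowest with 5-azacitidine, and HDAC3 lies between 83.5 and 93.2 CPM throughout.

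Among 12 co-regulators that receptors recruit or release with ligand, 10 were tested, and none rose, although 1 did with HDAC3i in 5 of 22 alternatives. With HDAC3i+AZA 8 fell against vehicle, with HDAC3i 6 and with AZA 2, beside 27.5%, 24.9% and 4.75% of all tested genes. The 2 with AZA were CARM1 and CREBBP, whose call (-0.31 ± 0.08, adjusted p = 0.00989) ended without AZA replicate 2 (0.0511) or 3 (0.0604) or vehicle replicate 2 (0.0514), and with the replicate block by library names (0.0699). Without HDAC3i+AZA replicate 3 and AZA replicate 1 together, 4 fell with AZA. The median log2 change of the 10 with both drugs was -0.38, beside 0.01 for all genes. CREBBP, which encodes the acetyltransferase CBP, fell by 0.61 ± 0.08 with HDAC3i and by 0.76 ± 0.08 with HDAC3i+AZA (adjusted p = 3.17e-07 and 5.42e-09). MED1, a Mediator subunit that binds liganded receptors, fell by 0.30 ± 0.05 and 0.38 ± 0.05 (adjusted p = 2.57e-05 and 8.43e-07), and CARM1, an arginine methyltransferase, by 0.30 ± 0.05 and 0.49 ± 0.05 (adjusted p = 2.68e-05 and 1.22e-08).

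Of 18 genes that make, activate or carry the ligands, 9 were tested, of which 3 rose and 2 fell with HDAC3i+AZA, 3 rose and 4 fell with HDAC3i, and 1 rose with AZA, beside 29.6% and 27.5%, 26.4% and 24.9%, and 4.31% of all tested genes. ALDH1A1, which oxidises retinal to retinoic acid, had 9.05, 11.1 and 11.4 CPM in HDAC3i+AZA libraries and 7.98, 8.37 and 8.05 CPM in HDAC3i libraries, against 8 counts in all in the 3 vehicle libraries. So few vehicle counts leave the fold imprecise. The ratio of summed counts to vehicle, scaled to library size, was 142 with both drugs (exact 95% interval 72.0 to 330.3) and 110.1 with the inhibitor (55.6 to 255.8), intervals that cover counting error only. ALDH1A1 was listed with its result already known, and it passed the filter through the groups with the inhibitor. DHRS9, which oxidises retinol to retinal, had 18.8, 16.7 and 19.3 CPM in HDAC3i+AZA libraries, 7.40, 9.64 and 8.21 CPM in HDAC3i libraries, 2.06, 1.91 and 1.90 CPM in AZA libraries, and 1.05, 0.955 and 1.02 CPM in vehicle libraries. Its 4 groups did not overlap, and it rose with each drug alone (3.06 ± 0.14 with HDAC3i, 0.96 ± 0.18 with AZA) and with both (4.18 ± 0.14, adjusted p = 1.04e-15, 0.000646 and 2.15e-19). CYP2R1, which makes 25-hydroxyvitamin D, rose by 0.54 ± 0.07 with both drugs (adjusted p = 3.97e-07). FABP5, which carries fatty acids and retinoic acid to PPARD, fell by 0.40 ± 0.05 (adjusted p = 4.42e-07).

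Many of the listed target genes of the receptors were too low to be tested. The counts below stand beside 29.6% of all tested genes higher and 27.5% lower with HDAC3i+AZA, 26.4% and 24.9% with HDAC3i, and 4.31% and 4.75% with AZA. Of 10 VDR targets, 4 were tested, and 3 rose with HDAC3i and with HDAC3i+AZA: CAMP, an antimicrobial peptide, the Wnt co-receptor LRP5, and NINJ1, a membrane protein of cell lysis. CAMP averaged 75.7 ± 8.01 CPM with both drugs, 67.7 ± 2.07 CPM with the inhibitor, 40.7 ± 2.71 CPM with 5-azacitidine and 33.1 ± 3.40 CPM in vehicle (SD, n = 3 each). The log2 change of CAMP with both drugs was 1.20 ± 0.08 (adjusted p = 2.93e-13). With AZA, 1 of the 4 VDR targets rose, CAMP again, by 0.30 on the log2 scale (adjusted p = 0.0119). That call ended without AZA replicate 3 (0.0922) or vehicle replicate 1 (0.0554) or 2 (0.0983). CYP24A1, the vitamin D 24-hydroxylase that is the classical VDR target, had 0 counts in all 12 libraries. Of 9 thyroid hormone receptor targets 5 were tested, with 3 higher and 1 lower with HDAC3i+AZA and 2 higher and 1 lower with HDAC3i. KLF9, a transcription factor, rose by 1.11 ± 0.24 and FURIN, a protease, by 1.12 ± 0.08 with both drugs, while ATP2A2, the calcium pump SERCA2, fell by 0.71 ± 0.05 (adjusted p = 0.00023, 2.19e-12 and 1.04e-11).

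Of 13 RAR targets, 6 were tested, with 4 higher and 1 lower with HDAC3i+AZA, 3 higher with HDAC3i and 2 higher with AZA. The 1 lower was CRABP2, which carries retinoic acid to its receptor (-0.57 ± 0.25, adjusted p = 0.0490). That call ended in 13 of 21 alternatives, with DESeq2 (0.0674), limma voom (0.0507) and the replicate blocks (0.0509 by title, 0.0680 by library name) among them, and without HDAC3i+AZA replicate 1 (0.230), HDAC3i replicate 1 (0.0545), AZA replicate 3 (0.0524) or vehicle replicate 1 (0.0664) or 3 (0.194). PLAAT4, a phospholipase induced by retinoids, averaged 8.49 ± 0.353 CPM with both drugs, 4.601 ± 0.312 CPM with the inhibitor, 1.53 ± 0.0639 CPM with 5-azacitidine and 0.647 ± 0.225 CPM in vehicle (SD, n = 3 each). Its log2 change with both drugs was 3.71 ± 0.17 (adjusted p = 4.78e-16). CD38, an ectoenzyme of leukocytes, rose by 0.60 ± 0.06 with both drugs and by 0.40 ± 0.06 with AZA (adjusted p = 6.07e-10 and 1.68e-05). CYP26B1, which breaks down retinoic acid and is named here after its values were seen, had 64 counts with both drugs, 24 with the inhibitor, 4 with 5-azacitidine and 0 in vehicle.

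Of 13 LXR targets, 8 were tested, with 5 higher and 1 lower with HDAC3i+AZA, 5 higher with HDAC3i, and 1 lower with AZA. The AZA call, SREBF1 (-0.17 ± 0.06, adjusted p = 0.0463), ended in 13 of 22 alternatives, among them those without AZA replicate 1 or 2, HDAC3i replicate 1, 2 or 3, or vehicle replicate 1, 2 or 3, with adjusted p up to 0.182. ABCG1, a cholesterol exporter, averaged 62.7 ± 2.42 CPM with both drugs, 60.0 ± 3.62 CPM with the inhibitor, 21.6 ± 1.69 CPM with 5-azacitidine and 23.7 ± 2.06 CPM in vehicle (SD, n = 3 each), with a log2 change of 1.40 ± 0.07 for both drugs (adjusted p = 3.49e-15). MYLIP, which degrades the LDL receptor, rose by 0.78 ± 0.09 and SREBF1, a regulator of lipid synthesis, by 0.36 ± 0.05 (adjusted p = 3.58e-08 and 2.70e-06). With both drugs NR1H3 was lower (-0.40) and so was NR1H2 (-0.20), whose call ended in 4 of 22 alternatives. Whether the receptor levels bear on the target levels was not tested. Of 14 PPAR targets, 8 were tested, with 7 higher with HDAC3i+AZA, 3 higher with HDAC3i, and 0 called with AZA by edgeR, DESeq2 or limma voom, with 0 at an unadjusted p under 0.05. PLIN2, a coat protein of lipid droplets, rose by 1.32 ± 0.08 and CPT1A, the carnitine transferase of mitochondrial fatty acid import, by 0.55 ± 0.07 with both drugs (adjusted p = 9.25e-14 and 1.20e-07). The filter on low counts reads all 4 groups, so a target that is silent in vehicle is tested mainly where a drug raised it. With that limit, the median log2 change with both drugs against vehicle was 1.02 for the tested VDR targets, 0.41 for those of the thyroid hormone receptors, 0.78 for RAR, 0.41 for LXR, 0.25 for PPAR, 0.08 for ligand supply and 0.18 for the complex, beside 0.01 for all genes.

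**Figure D5:**
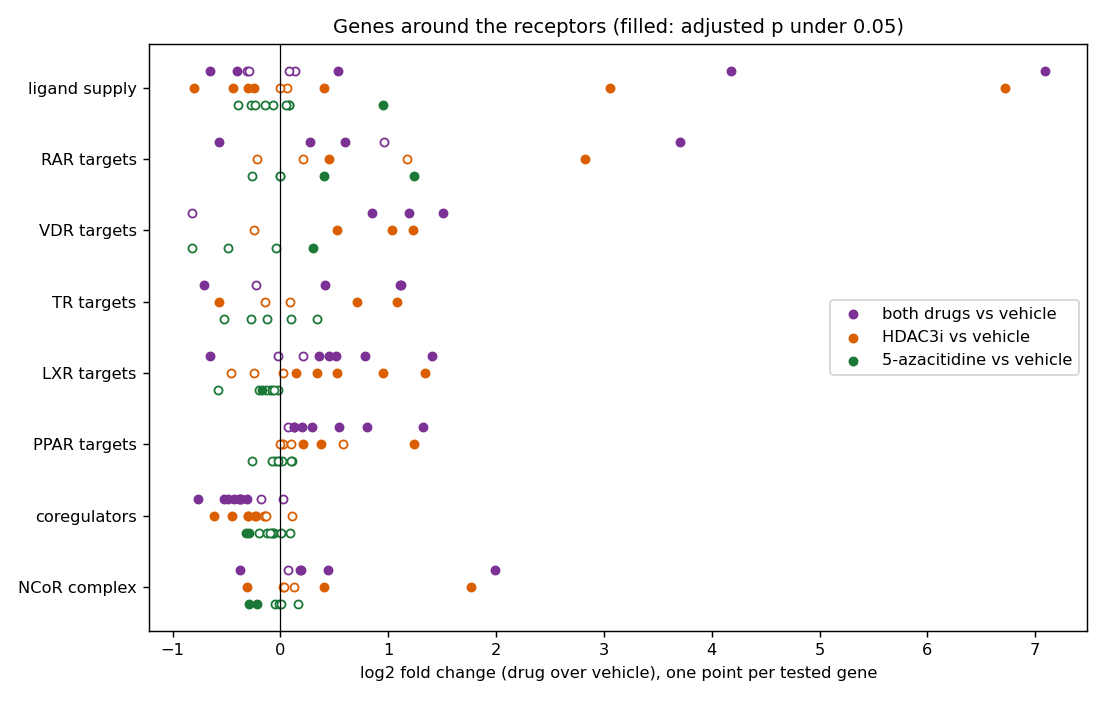
Log2 fold change against vehicle of each tested gene (points) in the lists of ligand supply, receptor targets, co-regulators and the NCoR complex, for both drugs, the inhibitor and 5-azacitidine, filled at an adjusted p under 0.05. Genes without a count in some group are not drawn, and the place of ALDH1A1, with 8 counts in vehicle, is a fitted value that depends on the prior count. The co-regulators lie at or left of 0 with both drugs but for NCOA3, while ALDH1A1 and DHRS9 lie far to the right.

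Library totals ranged from 35947872 to 36337086 counts. All 6 B-cell markers were detected, with summed levels of 3704 to 3814 CPM in HDAC3i+AZA, 3675 to 3742 CPM in HDAC3i, 2864 to 3077 CPM in AZA and 2720 to 2882 CPM in vehicle libraries. Of 6 T and natural killer cell markers, which moved with the inhibitor, the summed levels were 11.3 to 12.9, 8.24 to 9.39, 2.43 to 2.54 and 1.68 to 2.62 CPM in these groups, with CD8A at 0 throughout. The 6 myeloid markers summed to 2.63 to 3.28, 1.41 to 2.01, 0.137 to 0.380 and 0.327 to 0.497 CPM, with S100A8 at 0 throughout. Erythroid markers summed to at most 0.220 CPM, and 5 epithelial and stromal markers, among which PECAM1 is also made by leukocytes, to 88.0 to 99.0, 75.3 to 78.4, 72.8 to 78.5 and 63.0 to 68.0 CPM. With HDAC3i and with HDAC3i+AZA against vehicle, 5 of 6 tested B-cell, 4 of 4 T and natural killer and 2 of 3 myeloid markers were called higher. So were 2 of 2 tested epithelial and stromal markers, with a median log2 change of 3.57 with both drugs that their sum does not show. In these lists 0 were lower, beside 26.4% and 29.6% of all tested genes higher. The filter on low counts reads all 4 groups, so a marker near 0 in vehicle was tested mainly where a drug raised it. Such a marker could also hardly be called lower. Apart from the B-cell markers, these counts are therefore partly set by the filter and are no result about the marker lists. The part of these markers in the results was not tested. The mitochondrial share of counts was 12.5% to 15.3% with both drugs, 12.1% to 13.0% with the inhibitor, 10.01% to 13.8% with 5-azacitidine and 9.59% to 10.5% in vehicle, and its part was not tested beyond leaving out the pair named above.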

How the data were processed

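The deposited table holds expected counts for 12 OCI-Ly7 libraries of messenger RNA. They come from featureCounts 2.1.1 over exons, per the file headers, which gave a multiply mapped read in fractions, ignored strand and dropped reads that touch more than 1 gene. Its header names 16 libraries, and 4 of them have no column in the table, so they could not be analysed. Numbers in the library names were 1, 3 and 4 in vehicle and HDAC3i, 1, 2 and 3 in AZA, and 1, 2 and 4 in HDAC3i+AZA. Why libraries are absent, and any bearing on the spread within groups, was not tested. The header does not settle if reads or read pairs were counted. Per the submitters' processing notes, cutadapt 5.1, STAR 2.7.11b and Subread 2.1.2 were used on GRCh38. Of the values, 96.9% were whole within 1e-06. Exonic length in bases, for RPKM, is the deposited one.

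Counts were rounded to whole numbers. In R 4.3.3, filterByExpr of edgeR 4.0.16 kept 17869 genes with 99.93% of the counts, libraries were scaled by TMM, and all 12 were fitted with 1 mean per group. Each of 6 comparisons was tested two-sided with the edgeR quasi-likelihood test and Benjamini-Hochberg adjustment over all tested genes. Calls are adjusted p under 0.05. Intervals of log2 changes are 95% on 8 residual degrees of freedom. The quasi-likelihood tests used more degrees of freedom, so these intervals are wider than the tests imply. For RARA with AZA against vehicle, for example, that test gave an unadjusted p of 0.0458 beside an interval of -0.44 to 0.02. The biological coefficient of variation was 6.05%. Fits were tested on simulated data.

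All 10 receptors are named. From each other list came the 4 tested genes of smallest adjusted p with both drugs, at a mean of at least 1 CPM in some group, and the gene of smallest adjusted p in each other comparison; examples were taken from these, and the 6 genes of the complex are all named. Some further genes of the lists are not reported here. The members and lists were chosen with earlier results of these data known, ALDH1A1 among them. Alternatives were DESeq2 1.42.0 size factors and test, limma 3.58.1 voom, library totals, other filters, only the groups compared, replicate blocks and leaving out libraries. Same-numbered libraries did not deviate together: r was -0.0591 to 0.0665 over 18 pairs by title number and -0.0342 to 0.0665 over 13 pairs by library-name number. Promoters are RefSeq's. Tables and figures were made with Python 3.11.15, pandas 2.3.3 and matplotlib 3.10.9.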

Additional observations from a re-analysis of the deposited data

Results flagged for a closer look

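The interaction differed from 0 for 1 of the genes listed beside the receptors. For SCD, the desaturase that makes oleic acid, the interaction was 0.36 ± 0.08 (adjusted p = 0.0338): HDAC3i+AZA against HDAC3i was 0.30 ± 0.06 and AZA against vehicle -0.05 ± 0.06. SCD averaged 694 ± 52.3 CPM with both drugs, 563 ± 22.6 CPM with the inhibitor, 489 ± 35.1 CPM with 5-azacitidine and 508 ± 10.3 CPM in vehicle (SD, n = 3 each), and its interaction was not called without 10 of the 12 libraries, each left out in turn, with adjusted p up to 0.124.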

How the results depend on the processing

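Over 22 alternatives, 1013 of 1042 values of the 48 receptor results kept their side of the threshold, 20 lost the call and 9 gained one. No called value reversed, but 22 of the 1013, all uncalled, changed sign. VDR and THRA with the inhibitor against vehicle, with or without 5-azacitidine, were among those kept. Of the 5463 values of listed genes 112 lost a call, 80 gained one and none reversed. The order of the receptors per length was the same with library totals only, at all 8 ranks in every group. Scaling moved no named value by more than 0.0181 log2. Both replicate blocks, by title number and by library name, left every receptor call as it was; the replicate block by library names gave 783 genes lower for HDAC3i+AZA against HDAC3i and 166 lower in the interaction, against 506 and 81. At 5 CPM in 3 libraries, 3019 genes were higher with HDAC3i, 3378 with HDAC3i+AZA and 3388 with HDAC3i+AZA against AZA, 1 receptor was lower with HDAC3i and 1 with HDAC3i+AZA, and 135 genes were lower in the interaction (fewer genes were tested). That filter also gave, with HDAC3i+AZA, 5 ligand supply genes higher and 3 other receptors higher, and with HDAC3i 2 supply genes lower and 1 thyroid hormone receptor target higher; without a filter 8 other receptors were higher with HDAC3i+AZA, and without HDAC3i replicate 3, 1 LXR target was lower with HDAC3i. With AZA, 1 receptor (RXRA) was higher under DESeq2 size factors, no filter, DESeq2, and only the groups compared. Without the pair of highest mitochondrial share, 1 receptor was lower with HDAC3i+AZA against vehicle and 1 against AZA, 0 were higher against HDAC3i, and 28 genes were higher in the interaction. The interaction also gave 123 lower genes with DESeq2 size factors, 24 higher with library totals, 73 higher and 241 lower with no filter, and 104 and 275 with DESeq2; the cause was not tested. Leaving out each library gave ranges, higher then lower, of 4268 to 5009 and 3926 to 4680 genes for HDAC3i, 497 to 948 and 508 to 1032 for AZA, 5001 to 5628 and 4537 to 4925 for HDAC3i+AZA, 4786 to 5254 and 4124 to 4518 against AZA, 443 to 968 and 225 to 880 against HDAC3i, and 10 to 188 and 20 to 501 for the interaction. For receptors the ranges were 2 to 3 and 1 to 2 for HDAC3i, 0 to 1 and 0 to 1 for AZA, 3 and 1 to 2 for HDAC3i+AZA, 4 and 2 to 3 against AZA, and 0 to 1 and 0 against HDAC3i.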

Other observations

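Among the 38 other human nuclear receptor genes, 18 were tested and 8 had no count. With HDAC3i+AZA against vehicle 5 rose and 6 fell, with HDAC3i 4 rose and 5 fell, and with AZA 1 rose, beside 29.6% and 27.5%, 26.4% and 24.9%, and 4.31% of all tested genes. The rise with AZA was NR2F6 (0.22 ± 0.07, adjusted p = 0.0431), and the call ended without HDAC3i replicate 2 (0.0542) or 3 (0.0587), AZA replicate 2 (0.152) or 3 (0.164), or vehicle replicate 1 (0.101) or 2 (0.215), with library totals only (0.0587) and with the replicate blocks (0.0525 by title, 0.103 by library name). ESR2, estrogen receptor beta, had 16.2, 14.2 and 13.4 CPM in HDAC3i+AZA libraries, 13.2, 14.9 and 13.0 CPM in HDAC3i libraries, 34.8, 30.9 and 34.1 CPM in AZA libraries, and 29.3, 31.2 and 28.97 CPM in vehicle libraries. It was lower in all libraries with the inhibitor, with log2 fold changes of -1.12 ± 0.08 for HDAC3i (adjusted p = 8.02e-12) and -1.03 ± 0.08 for HDAC3i+AZA (adjusted p = 2.41e-11). NR3C1, the glucocorticoid receptor, fell by 0.38 ± 0.06 and 0.47 ± 0.06 (adjusted p = 1.20e-05 and 4.26e-07). NR1D2, REV-ERB beta, fell by 0.42 ± 0.12 with both drugs (adjusted p = 0.00295). RORA, whose protein competes with REV-ERB for its sites, had 53 counts with both drugs, 69 with the inhibitor, 18 with 5-azacitidine and 19 in vehicle, and rose with HDAC3i by 1.83 ± 0.52 (adjusted p = 0.00414). RORA passed the filter through the groups with the inhibitor, with at most 0.282 CPM in vehicle and 0.273 CPM in AZA libraries. Its rise with both drugs (1.46 ± 0.53, adjusted p = 0.0210) was not called without HDAC3i+AZA replicate 1 (0.0923) or 2 (0.0607) or vehicle replicate 1 (0.118), nor with the replicate block by library names (0.0525). PPARA was higher in HDAC3i+AZA than in AZA by 0.74 ± 0.19 (adjusted p = 0.00134), and NR2F6, a repressor in lymphocytes, rose with both drugs by 0.27 ± 0.07 (adjusted p = 0.00161).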
